A study of Arabidopsis thaliana with 22 samples.

Results

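The genes described here are the 150 loci whose expression varied most closely with that of CASP1 (AT2G36100), out of 27143 loci on the array. CASP1 is a membrane protein of the endodermis, the innermost layer of the root's ground tissue. The genes were chosen from measured values. With 1 transcript model per locus (the model of highest mean), Pearson r was taken over 18 of the 22 arrays with 5 anchor genes, namely WER (AT5G14750, non-hair epidermis), COBL9 (AT5G49270, root hairs), CASP1, C/VIF2 (AT5G64620, cortex) and KNOLLE (AT1G08560, dividing cells). CASP1 was the best-matching anchor of 3038 loci, and the 150 with the highest r to CASP1 were kept. Every correlation and level below that comes from those 18 arrays is therefore a description and carries no test.

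Arabidopsis roots of 2 genotypes, the mutant atscl26 and Col0, carried GFP reporters of epidermis or cortex, and GFP-marked cells were isolated by fluorescence-activated sorting of protoplasts. Seedlings grew on plates without nitrogen other than 0.1 mM KNO3, with 30 mM sucrose, and were treated for 2 h with 5 mM KNO3 or with the control, which sample titles call KCl (5 mM in the source names) and the protocol describes as fresh plates at 0.1 mM KNO3. The protocol gives an age of 9 days and the source names 12 days. The 8 groups were atscl26 epidermis KNO3, atscl26 epidermis KCl, Col0 epidermis KNO3, Col0 epidermis KCl, and the same 4 in cortex, with 2 arrays for Col0 cortex KNO3 and for atscl26 epidermis KCl and 3 for each other group. The reporter lines are not named in the sources used here, and every sample was a pool of sorted cells whose RNA was amplified before hybridisation. In such samples, fewer cells of a type and less RNA per cell cannot be told apart. Endodermis was not a sorted population, so the label of no sample names the cells that CASP1 marks.

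The endodermis encloses the vascular tissue of the root and forms the Casparian strip, a lignin band that seals the space between neighbouring cells. CASP proteins assemble into a membrane scaffold at the site of the strip. The scaffold gathers peroxidases, a dirigent-type protein and oxidases that polymerise lignin there, and the transcription factor MYB36 switches on CASP1 and much of this machinery. Suberin lamellae form at a later stage of endodermal differentiation under other regulators.

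CASP1 itself varied widely among replicates of 1 label. In epidermis its log2 level was 8.75, 8.15 and 12.33 in atscl26 KNO3, 8.81 and 7.70 in atscl26 KCl, 8.16, 10.16 and 9.98 in Col0 KNO3, and 13.38, 11.89 and 7.71 in Col0 KCl. In cortex it was 9.80, 8.82 and 9.45 in atscl26 KNO3, 8.92, 11.57 and 8.35 in atscl26 KCl, 11.96 and 7.86 in Col0 KNO3, and 8.62, 8.42 and 8.08 in Col0 KCl. The 5 highest levels fell in 4 different groups, each of which also held an array under 9. Col0 epidermis KCl alone held both 13.38 and 7.71, and the lowest level of all (7.70) was in atscl26 epidermis KCl. The groups overlapped in each pair of treatments within a genotype and cell type.

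The 150 genes followed the same arrays. Their median level was 6.52, 6.84 and 8.66 in atscl26 epidermis KNO3, against 6.87 and 6.45 in atscl26 epidermis KCl. It was 6.74, 6.87 and 7.35 in Col0 epidermis KNO3, against 9.502, 8.58 and 6.58 in Col0 epidermis KCl. It was 7.72, 6.74 and 6.90 in atscl26 cortex KNO3, against 6.96, 7.78 and 6.56 in atscl26 cortex KCl, and 8.53 and 6.68 in Col0 cortex KNO3, against 7.05, 6.75 and 6.72 in Col0 cortex KCl. Over the 18 arrays, 109 of the genes were highest in Col0 epidermis KCl replicate 1, 28 in atscl26 epidermis KNO3 replicate 3 and 12 in atscl26 cortex KCl replicate 2. The 8 group labels accounted for a median of 30.8% of the genes' sum of squares over the 22 arrays, beside 29.2% for all loci.

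**Figure D1:**
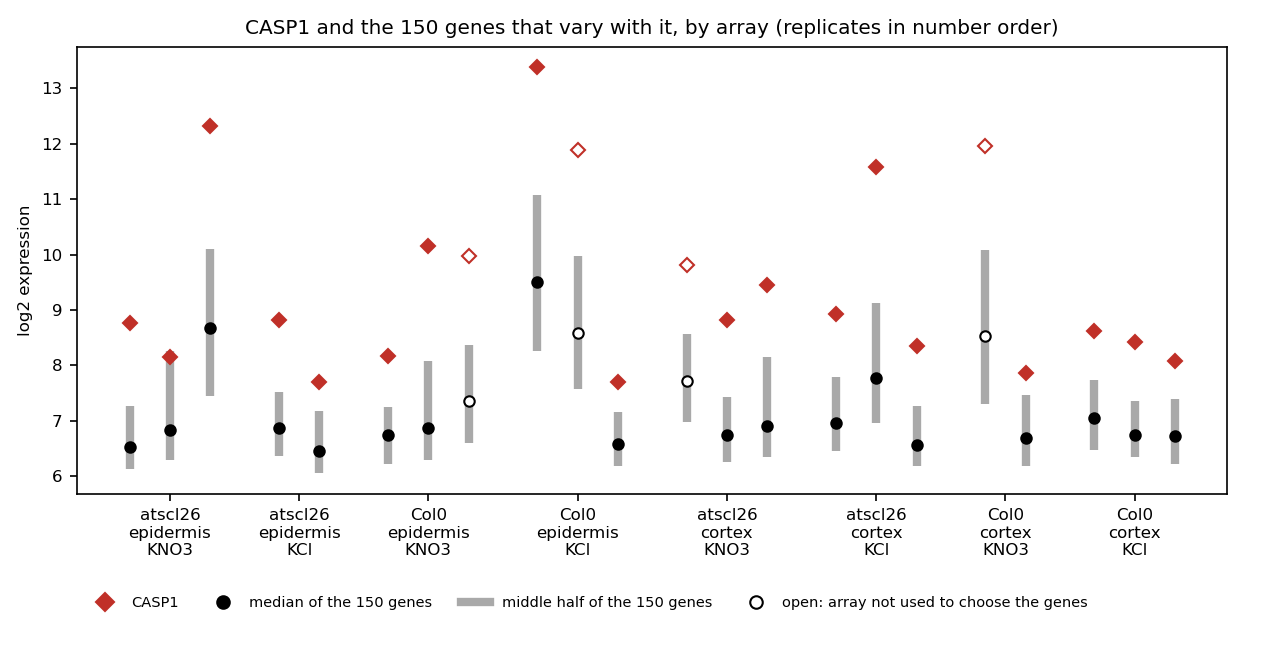
Log2 level (vertical axis) of CASP1 (red diamonds) and of the 150 genes (black circles, median; grey bars, 25th to 75th percentile) on each array, by group; open symbols mark the 4 arrays not used to choose the genes. CASP1 reached 13.38 and 11.89 on arrays of Col0 epidermis KCl whose other array read 7.71, and the genes' median moved with it.

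The r values depended on 2 arrays of high CASP1. The r with CASP1 ran from 0.72 to 0.92 with a median of 0.78, beside a median of -0.03 for all other loci. Spearman rho with CASP1 had a median of 0.57 (0.22 to 0.90). Without the 2 arrays farthest from the median in CASP1 (Col0 epidermis KCl replicate 1 and atscl26 epidermis KNO3 replicate 3), the median r over 16 arrays was 0.53 (-0.01 to 0.91), beside 0.11 for all loci. On those 16 arrays, 86 of the genes stayed above 0.5, and CASP1 stayed the best-matching anchor of 110. If the whole choice was repeated on the 16 arrays, 8 of the 150 loci were chosen again. The xylem regulator NAC076 (0.91), the laccase LAC3 (0.83) and the phloem gene DAR2 (0.80) had the highest r on the 16 arrays, and the auxin methyltransferase IAMT1 (-0.01) had the lowest. NAC076 read 5.73 to 6.28 on the 16 arrays, highest on atscl26 cortex KCl replicate 2. There it stood 0.42 above its median over the arrays that chose the genes, LAC3 0.80 and DAR2 0.58. Loci outside the 150 with a mean under 9 were raised on that array by a median of 0.45. The part of this shift in the r of NAC076 was not tested.

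**Figure D2:**
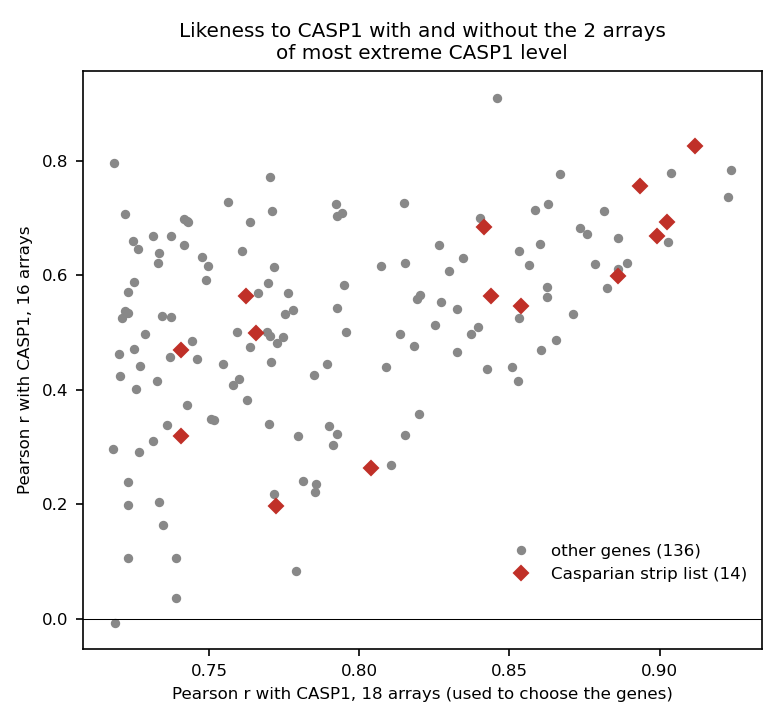
Pearson r with CASP1 over the 18 arrays that chose the genes (horizontal) against r over the 16 arrays left without the 2 most extreme CASP1 levels (vertical); red diamonds are the 14 genes of the Casparian strip list and grey circles the other 136. LAC3 kept an r of 0.83, whereas IAMT1 had -0.01.

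At the edge of the list, the last loci inside were IAMT1 (0.7186), DAR2 (0.7185) and AT3G32980 (0.7182), and the first outside were SBT4.12 (0.7178), AT5G26730 (0.7178) and ESL1 (0.7177). C/VIF2 was the best-matching anchor of 11744 of the 27142 other loci on the array. Among the 150, the next-best anchor was C/VIF2 for 125 genes and COBL9 for 25. The margin between CASP1 and that next-best anchor had a median of 0.30 (0.01 to 0.64). For 8 genes it was under 0.1. The r with KNOLLE was negative for 144 genes and the r with WER for 143. CASP1 itself had -0.25 with KNOLLE and -0.22 with WER, so these signs follow in part from the choice. Among themselves the genes had a median r of 0.69 over 11175 pairs.

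Before the gene groups are described, 3 features of the arrays bear on them. The 4 arrays left out by the rule (Col0 epidermis KNO3 replicate 3, Col0 epidermis KCl replicate 2 and the first arrays of cortex KNO3 in atscl26 and in Col0) had median correlations with the other arrays of 0.80, 0.56, 0.77 and 0.68, where the other 18 had 0.85 to 0.92. On 7 arrays the difference between epidermis markers (non-hair and root hair lists) and cortex markers lay nearer the mean of the other cell type. They were atscl26 epidermis KNO3 replicates 2 and 3, Col0 epidermis KCl replicates 1 and 2, atscl26 cortex KNO3 replicates 2 and 3, and atscl26 cortex KCl replicate 3. The cell type means included these 7 arrays. Col0 cortex KNO3 replicate 1 lay almost on the midpoint of the means (-0.2386 against -0.2345), so its side was not clear. In the authors' deposited table of group averages, 2 of the 8 averages contain other arrays than their label names: Col0 epidermis KCl averages its replicates 1 and 3 with atscl26 epidermis KNO3 replicate 1, and Col0 cortex KNO3 averages its 2 arrays with atscl26 cortex KCl replicate 1. CASP1 is 9.95 and 9.58 in those averages of the authors' deposited table, beside group means of 10.99 and 9.91.

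The scaffold genes CASP2, CASP4 and CASP5 were among the 150, with r to CASP1 of 0.80, 0.84 and 0.90. In epidermis CASP2 read 7.82, 7.61 and 9.62 in atscl26 KNO3, 7.98 and 8.01 in atscl26 KCl, 7.53, 7.63 and 8.31 in Col0 KNO3, and 12.16, 9.18 and 7.18 in Col0 KCl. In cortex it read 9.32, 7.40 and 8.46 in atscl26 KNO3, 7.66, 7.82 and 7.74 in atscl26 KCl, 10.34 and 7.63 in Col0 KNO3, and 7.74, 8.16 and 7.39 in Col0 KCl. CASP2 was thus high on the first arrays of Col0 epidermis KCl and Col0 cortex KNO3, but read 7.82 on atscl26 cortex KCl replicate 2, where CASP1 read 11.57. CASP5 read 6.91, 6.96 and 8.71 in atscl26 epidermis KNO3, 7.19 and 6.48 in atscl26 epidermis KCl, 7.06, 6.76 and 7.27 in Col0 epidermis KNO3, and 9.80, 7.59 and 6.86 in Col0 epidermis KCl. Its cortex levels lay between 6.81 and 8.19. The treatments overlapped for CASP5 in epidermis of both genotypes. On the 16 arrays the r of CASP2 was 0.26, where that of CASP4 was 0.68 and that of CASP5 0.67. CASP4 had a narrow range, from 5.62 to 8.53.

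Of the related CASP-like family 3 were also among the genes: CASPL2B2 (AT2G35760, r 0.77), CASPL5C1 (AT4G37235, r 0.78) and CASPL5C2 (AT3G50810, r 0.73). Their median difference from their own 18-array medians was 2.23 on Col0 epidermis KCl replicate 1.

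Genes that act in lignin polymerisation included some of the highest r values. LAC3, a laccase of the Casparian strip, had r 0.91 and the highest Spearman rho of the 150 (0.90). In epidermis LAC3 read 7.01, 6.82 and 8.57 in atscl26 KNO3, 7.37 and 6.65 in atscl26 KCl, 7.10, 8.57 and 8.57 in Col0 KNO3, and 10.78, 10.38 and 6.68 in Col0 KCl. In cortex LAC3 read 8.53, 7.12 and 7.54 in atscl26 KNO3, 7.07, 7.91 and 6.99 in atscl26 KCl, 9.27 and 6.81 in Col0 KNO3, and 7.48, 7.17 and 7.05 in Col0 KCl. No group pair of treatments was separated for LAC3 within epidermis. Its highest levels (10.78, 10.38 and 9.27) fell on arrays of high CASP1. On atscl26 cortex KCl replicate 2, where CASP1 read 11.57, LAC3 read only 7.91.

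PER64, a peroxidase needed for lignin in the strip, had r 0.89. In epidermis PER64 read 8.45, 7.61 and 12.14 in atscl26 KNO3, 8.08 and 7.78 in atscl26 KCl, 7.93, 10.57 and 8.37 in Col0 KNO3, and 13.39, 10.77 and 7.38 in Col0 KCl. Its cortex levels lay between 7.09 and 9.63, so that the arrays over 10 were all labelled epidermis. Of these, atscl26 epidermis KNO3 replicate 3 and Col0 epidermis KCl replicates 1 and 2 had markers nearer cortex. Col0 epidermis KNO3 replicate 2 had the markers of its label. ESB1, a dirigent-domain protein that organises the strip's lignin, had r 0.84. In epidermis ESB1 read 7.84, 9.03 and 12.18 in atscl26 KNO3, 8.05 and 7.31 in atscl26 KCl, 7.87, 11.94 and 8.92 in Col0 KNO3, and 13.01, 10.88 and 8.11 in Col0 KCl. In cortex it read 9.72, 7.91 and 9.91 in atscl26 KNO3, 8.04, 9.14 and 8.52 in atscl26 KCl, 11.89 and 8.79 in Col0 KNO3, and 8.60, 7.99 and 8.34 in Col0 KCl. All ESB1 levels in Col0 cortex KNO3 were above all those in Col0 cortex KCl, but they were 2 arrays against 3. ESB1 overlaps the neighbouring member AT2G28671 in the reference annotation, and their r was 0.96. The sources used here do not say whether probes were specific to a strand, so the signals of the pair cannot be told apart.

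Peroxidase PRX72 (AT5G66390) had r 0.89 and the uclacyanin UCC1, a copper protein of the strip, r 0.85. DIR6, a dirigent protein that steers lignan formation, had the highest r of all (0.92). DIR6 was highest on Col0 cortex KNO3 replicate 1 (14.24), Col0 epidermis KCl replicate 1 (13.58) and atscl26 epidermis KNO3 replicate 3 (12.88), and lowest on Col0 cortex KCl replicate 3 (8.55). The pinoresinol reductase PRR1 (r 0.73), the monolignol transporter ABCG29 (0.86) and the glucosidase BGLU46 (0.81), which releases monolignols from their glucosides, belonged to the same pathway branch. These lignin and lignan genes were put together after their values were seen. No enzyme of the shared phenylpropanoid and monolignol pathway was among the 150, though few or none would be by share alone, since 150 of 27143 loci were kept. For 13 of the 14 measured, from PAL1 to CAD5, the best-matching anchor was C/VIF2, beside 11744 of the 27142 other loci. The median r of the 14 with CASP1 was 0.41. FAH1, among the 13, had only 0.04 with C/VIF2. CCOAOMT1 had r 0.88 with C/VIF2 and 0.41 with CASP1, and 4CL2 had 0.85 and 0.49.

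MYB36, the regulator of the scaffold genes, had r 0.77 with CASP1 and was also high on some arrays where CASP1 was not. In epidermis MYB36 read 6.22, 10.81 and 11.001 in atscl26 KNO3, 6.38 and 6.14 in atscl26 KCl, 6.63, 10.23 and 7.52 in Col0 KNO3, and 12.28, 8.63 and 6.68 in Col0 KCl. In cortex it read 10.54, 7.09 and 10.002 in atscl26 KNO3, 8.11, 8.57 and 6.40 in atscl26 KCl, 12.25 and 6.63 in Col0 KNO3, and 7.05, 6.28 and 6.61 in Col0 KCl. On atscl26 epidermis KNO3 replicate 2, MYB36 stood 3.94 above its own 18-array median while CASP1 was at 8.15. LAX3 stood 2.99 above its own median on that array and PER64 0.78 below it.

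Of the 22 other genes of the Casparian strip and endodermal differentiation list, 14 were among the 150 and 17 had CASP1 as best-matching anchor, whereas CASP1 was the best anchor of 3038 of the 27142 other loci. Their median r was 0.76. Members besides those named included AT1G44970 (0.74), AT4G11290 (0.74), AT2G39430 (0.77), AT3G24020 (0.76) and AT4G13580 (0.85), for which the reference used gives no name. Of the 8 outside, AT1G61590 (0.69) and RCI3 (0.67), a peroxidase, were close to the edge. GSO1, a receptor kinase that monitors the integrity of the strip, had 0.61 with CASP1 and 0.78 with C/VIF2. RBOHF, the oxidase that supplies peroxide for lignification, had 0.27, AT4G34600 0.18, AT2G16385 0.01, AT5G50150 -0.09 and TPST, which sulfates peptide hormones, -0.26.

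**Figure D3:**
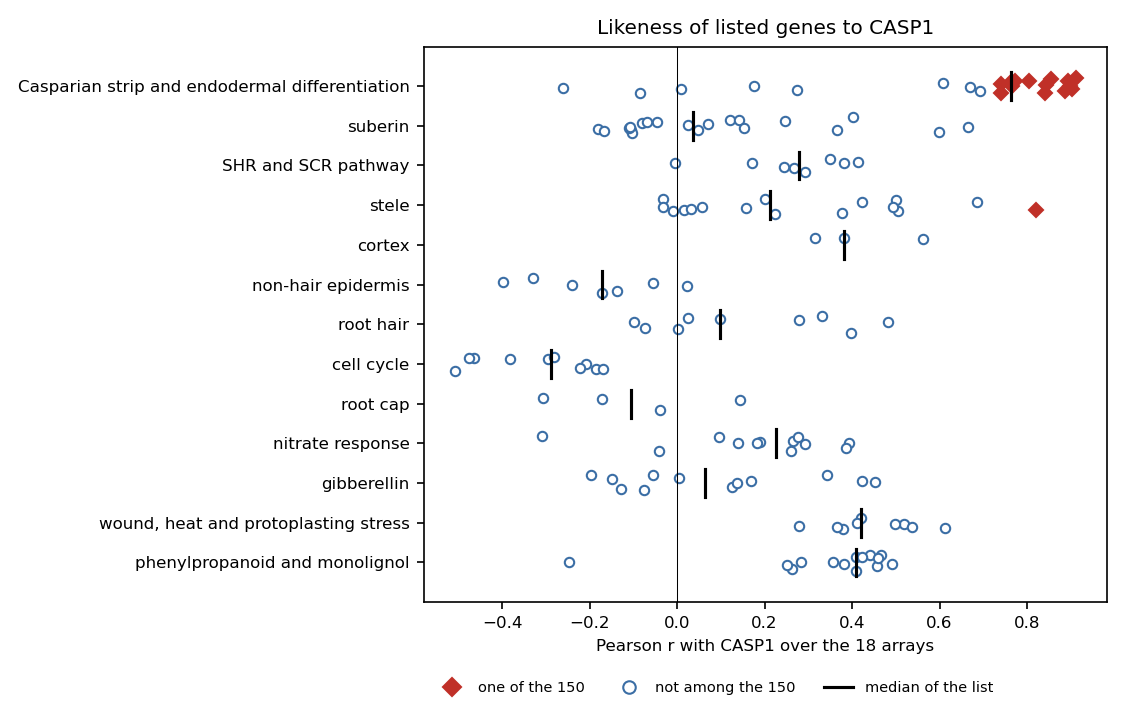
Pearson r with CASP1 over the 18 arrays (horizontal) for each measured gene of 13 lists (rows), without the anchors; red diamonds are among the 150, open circles are not, and the black bar is the list median. The median was 0.76 for the Casparian strip list, 0.28 for the SHR and SCR pathway and 0.04 for suberin.

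No gene of the suberin list or of the SHR and SCR pathway was among the 150. With 150 of 27143 loci kept, lists of 20 and 8 genes would hold few or none by share alone. The 20 suberin genes had a median r of 0.04 with CASP1. The closest were ASFT (0.67), a feruloyl transferase of suberin, and the regulator MYB92 (0.60), while GPAT5 (0.05) and CYP86A1 (0.14), enzymes of suberin monomers, were near 0. All 8 genes of the SHR and SCR pathway, which sets up the ground tissue, had C/VIF2 as best-matching anchor, beside 11744 of the 27142 other loci. NUC had 0.94 with C/VIF2 and 0.38 with CASP1, MGP 0.91 and 0.29, and SCR, which is active in the endodermis itself, 0.76 and 0.41.

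Other lists held 1 member in all. Of 16 stele genes the sucrose carrier SUC2, which loads phloem companion cells, was a member (r 0.82), and the list's median r was 0.21. The median was 0.38 for 3 cortex genes other than C/VIF2, 0.10 for 9 root hair genes, -0.17 for 7 non-hair epidermis genes, -0.29 for 10 cell cycle genes and -0.11 for 4 root cap genes. For 12 nitrate response genes it was 0.23, for 12 gibberellin genes 0.06 and for 9 genes of wound, heat and protoplasting stress 0.42. On the 2 arrays of highest CASP1 among the 18, atscl26 epidermis KNO3 replicate 3 and Col0 epidermis KCl replicate 1, the mean of the cortex list was 11.58 and 10.995, and the stress list averaged 13.08 and 13.16. Over the 22 arrays the cortex list ran from 7.61 to 11.58 and the stress list from 11.07 to 13.16. Some arrays of lower CASP1 came near these levels. The cortex list averaged 10.72 on Col0 cortex KCl replicate 3 (CASP1 8.08), and the stress list 12.93 on Col0 cortex KCl replicate 1 (CASP1 8.62). The part of either list in the CASP1 pattern was not tested.

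The genes with known vascular roles, grouped here after their values were seen, were few and low in signal. SUC2 read 5.73, 6.23 and 7.03 in atscl26 epidermis KNO3, 5.95 and 5.64 in atscl26 epidermis KCl, 5.90, 5.88 and 6.13 in Col0 epidermis KNO3, and 8.46, 8.21 and 5.85 in Col0 epidermis KCl. Its cortex levels lay between 5.79 and 6.97. Both arrays of SUC2 above 8 were Col0 epidermis KCl, and both were among those whose markers lay nearer cortex. The other phloem genes were NAC045 (0.73), which drives loss of the nucleus in sieve elements, SMXL4 (AT4G29920, 0.76) and SMXL5 (AT5G57130, 0.75), which promote phloem formation, and DAR2 (0.72). NAC076 (0.85), a vascular-related NAC factor, and the xylan synthesis genes IRX9 (0.74) and FRA8 (0.74) belong to xylem wall formation. NAC076 stood at 5.73 to 6.84 on all arrays but atscl26 cortex KNO3 replicate 1, where it read 8.45. Loci outside the 150 with a mean under 9 were raised on that array by a median of 0.87, and by 1.30 on Col0 epidermis KCl replicate 2. SMXL4 had the lowest mean of the 150 (5.78).

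Genes of hormone pathways, also grouped after the values were seen, included 6 linked to auxin. LAX3, an auxin importer, had r 0.79 and was highest on Col0 epidermis KCl replicate 1 (12.34) and atscl26 epidermis KNO3 replicate 3 (11.23). SAUR78 (AT1G72430, 0.90), the vacuolar auxin exporter WAT1 (0.88), the receptor AFB4 (0.74), the response factor ARF11 (0.74) and IAMT1 (0.72) were the others. CPD (0.77), an enzyme of brassinosteroid synthesis, and the receptor-like kinase BRL2 (0.74) stood beside MAX1 (named CYP711A1 in the reference, 0.79) and LBO1 (0.72), both of strigolactone synthesis. CYP711A1 read 12.70 on atscl26 cortex KCl replicate 2, its highest level, and 10.38 on Col0 epidermis KCl replicate 1.

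Wall-remodelling genes were represented by the xyloglucan endotransglucosylases XTH14 (0.84), XTH20 (0.79) and XTH33 (0.76). The beta-galactosidases BGAL4 (0.84) and BGAL12 (0.83) and the gene JP630 (0.83) were grouped with them. BT1, a BTB and TAZ domain protein linked in Arabidopsis to nitrogen use, had r 0.89. In atscl26 epidermis it read 7.31, 8.61 and 11.10 in KNO3, against 7.87 and 7.35 in KCl. In Col0 epidermis BT1 read 7.49, 7.93 and 8.49 in KNO3, against 10.75, 10.99 and 7.67 in KCl. The treatments overlapped in both genotypes, and the high BT1 arrays were those of CASP1. The secreted peptides RALF1 and CLE5 had r 0.86 each, and the metal-binding HIPP20 had 0.90. Transporters included the sulfate transporter family member AST91 (0.80), NPF4.4 (AT1G33440, 0.73) of the nitrate and peptide transporter family, and ABCG22 (0.79).

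**Figure D4:**
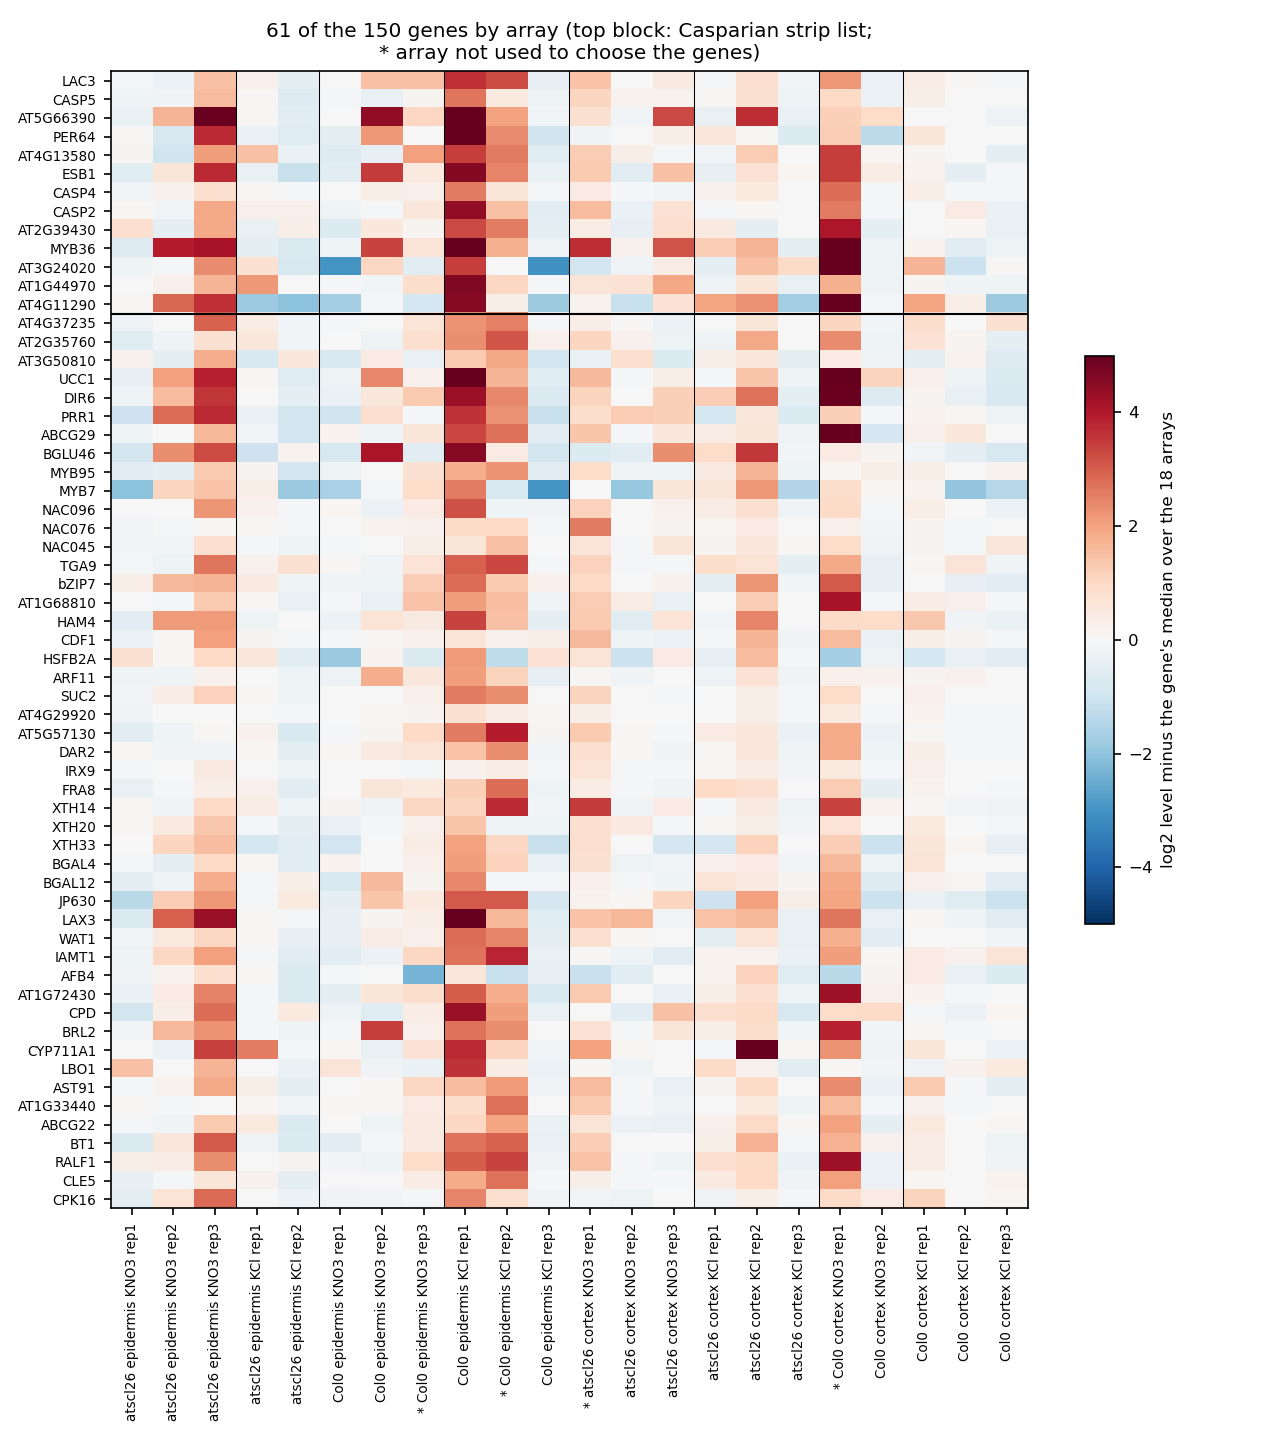
Log2 level minus each gene's median over the 18 arrays (colour; the scale ends at a size of 5 in each direction, so larger values share the end colours) for 61 of the 150 genes (rows) on the 22 arrays (columns, asterisks for arrays not used to choose the genes); rows above the line belong to the Casparian strip list. Col0 epidermis KCl replicate 1 is high in nearly every row, while Col0 epidermis KNO3 replicate 2 is high in MYB36, ESB1, PRX72 (AT5G66390) and BGLU46 and near 0 in most others.

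The Casparian strip genes exceeded the other members on the 2 arrays of highest CASP1. On atscl26 epidermis KNO3 replicate 3 the 14 list genes stood a median of 2.22 above their own 18-array medians, against 1.54 for the other 136 members. On Col0 epidermis KCl replicate 1 it was 4.40, against 2.37. These differences were not tested, since the arrays chose the genes. On Col0 epidermis KNO3 replicate 2, 6 of the 14 and 20 of the 136 stood more than 1 above their medians. The 6 included PRX72 (4.45), ESB1 (3.51), MYB36 (3.37), PER64 (2.18) and LAC3 (1.47), while CASP4 (0.35) and CASP2 (-0.11) stayed near theirs. BGLU46 (4.09), BRL2 (3.44) and UCC1 (2.39) were up on the same array, which carried 10.16 of CASP1 and the marker pattern of its label.

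The correlations that chose the genes did not use 4 of the arrays, which entered only the choice of 1 model per locus. On Col0 epidermis KNO3 replicate 3, 131 of the 150 genes stood above their own 18-array median, against 61% of all loci. On Col0 epidermis KCl replicate 2 it was 138 genes against 53.8%, on atscl26 cortex KNO3 replicate 1 it was 138 against 61.5%, and on Col0 cortex KNO3 replicate 1 it was 146 against 60.7%. Dim loci were raised on these arrays too. Of 13709 loci outside the 150 with a mean under 9 over the 18 arrays, 82.5%, 84.3%, 84.4% and 86.9% were above their own medians on the 4 arrays in that order. The median difference of the 150 was 0.50, 1.76, 0.79 and 1.48, beside 0.60, 1.30, 0.87 and 1.14 for the dim loci. In median difference the 150 were above the dim loci where CASP1 read 11.89 and 11.96 and not where it read 9.98 and 9.80. In the share above their own medians (87.3%, 92%, 92% and 97.3%) they exceeded the dim loci on all 4 arrays. The dim loci were not matched to the 150 in level or spread. On Col0 cortex KNO3 replicate 1 the 14 Casparian strip genes stood 3.11 above their medians, against 1.39 for the other 136. On Col0 epidermis KCl replicate 2 the gap was small, with 1.89 for the 14 against 1.76 for the 136. Among the arrays that chose the genes, on the 3 with the highest CASP1 (Col0 epidermis KCl replicate 1, atscl26 epidermis KNO3 replicate 3 and atscl26 cortex KCl replicate 2) the 150 stood at 2.53, 1.62 and 0.70, values fixed in part by the choice, and the dim loci at -0.16, -0.12 and 0.45.

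Most of the 150 had low array signals. Their mean over the 22 arrays was under 9 for 135 genes, beside 50.6% of all loci, and under 7 for 56, where the lower quartile of all loci was 7.24. AFB4 had the highest mean (11.56). The range over the arrays was widest for AT3G24020 (8.14) and narrowest for AT4G20670 (0.78), and the standard deviation had a median of 0.97, beside 0.86 for all loci. A low array signal limits the precision of a gene's level, and 70 of the 150 were among the dim models left out in one of the alternatives, the lowest 25% of all models.

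For 12 of the loci other transcript models were measured, 16 in all. Their r with CASP1 had a median of 0.82, and 15 were above 0.5. The second model of ESB1 had 0.83, both other models of CPD had 0.84 and 0.75, and SCPL51 model 1 had 0.05 where its chosen model had 0.85. Models of a locus can share probes. The genes lay on all 5 chromosomes, with 35, 36, 23, 26 and 30 on chromosomes 1 to 5. Apart from ESB1 and AT2G28671, members with at most 2 genes between them were AT3G45700 and AT3G45720 (r 0.87), AT3G55890 and AT3G55910 (0.69), AT4G11190 and AT4G11210 (0.86), and AT5G42500 and AT5G42510 (0.91). The last pair and the XTH, BGAL and CASP families have related sequences, and probe specificity among them is not given in the sources used here.

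The design crosses nitrate treatment, genotype and cell type, and each comparison was fitted over all 22 arrays with limma. No member passed an adjusted p of 0.05 (Benjamini-Hochberg) in any of the 7 comparisons. Over all 31524 models 1 passed, in the cell type effect (0.00317% of models), and 0% passed in each of the other 6. At an unadjusted p under 0.05, limma gave no member in the average nitrate, genotype and cell type effects (2.33%, 4.84% and 6% of all models) and in the nitrate effect in atscl26 cortex (2.72%). It gave 21 members, all lower with KNO3, in Col0 epidermis (2.22% of all models were lower at that level). It gave 6 higher ones in Col0 cortex (1.89%) and 2 higher ones in atscl26 epidermis (1.65%). The choice of genes bears on these counts. Over the 18 arrays, 109 members were highest in Col0 epidermis KCl replicate 1 and 28 in atscl26 epidermis KNO3 replicate 3. The members also varied together (median r 0.69), so they do not count as independent genes. An excess over all models was therefore not tested. The same holds for the counts of genes by direction given below. Replicates are called biological in the labels, with no statement of separate cultures or sorts, so the p-values measure the spread between these arrays.

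Averaged over the other factors, the effects on CASP1 were smaller than their standard errors, and no member passed after adjustment. The nitrate effect (KNO3 minus KCl) on CASP1 was 0.30 ± 0.71 (SE) and the median of the 150 was 0.06, with 88 genes above 0, beside 54.2% of all loci. MYB36 was 1.58 ± 0.83 higher with KNO3 (limma, Benjamini-Hochberg adjusted p = 1), and AT1G49740 had the smallest p of the members, at 0.77 ± 0.40 (adjusted p = 1). The genotype effect (atscl26 minus Col0) on CASP1 was -0.43 ± 0.71, and 27 genes were above 0, beside 43.8% of all loci. Its median over the 150 was -0.31, beside -0.06 for all loci, with SMXL5 (AT5G57130) at -0.80 ± 0.39 and DAR2 at -0.60 ± 0.30 (limma adjusted p = 0.806 each). The cell type effect (epidermis minus cortex) on CASP1 was 0.30 ± 0.71, and its median over the genes was 0.10, with 102 above 0, beside 39.8% of all loci. BETA-VPE, a vacuolar protease, and AT4G02090 had the smallest p there (0.61 ± 0.40 and 0.77 ± 0.52, limma adjusted p = 0.901 each). The epidermis arrays of highest median level of the 150 (9.502 and 8.58 on Col0 KCl replicates 1 and 2, 8.66 on atscl26 KNO3 replicate 3) had markers nearer cortex. Without the 7 arrays nearer the other cell type by markers, the cell type effect was below 0 for CASP1, BETA-VPE and AT4G02090. That fit left 1 KCl array in Col0 epidermis.

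**Figure D5:**
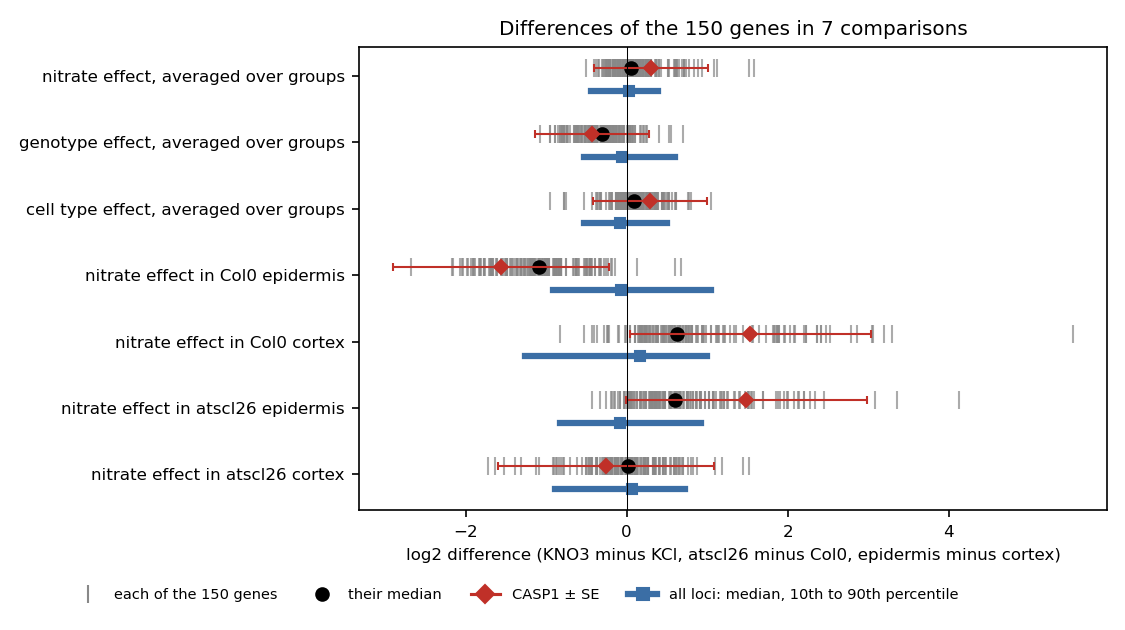
Log2 differences (horizontal) in 7 comparisons (rows): grey ticks are the 150 genes, black circles their median, red diamonds CASP1 with its standard error, and blue bars and squares the 10th to 90th percentile and the median of all loci. The genes' median was -1.09 for nitrate in Col0 epidermis and 0.60 in atscl26 epidermis, and the error bars of CASP1 were wider than 1 in each of the 4 single comparisons.

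Within single groups the nitrate difference depended on single arrays. In atscl26 epidermis CASP1 was 1.49 ± 1.495 higher with KNO3 (limma adjusted p = 1), and 136 genes were above 0, beside 42.6% of all loci, with a median of 0.60. Without KNO3 replicate 3 the median was 0.02 and CASP1 0.19, both still above 0. AT4G11290 (4.13 ± 1.74) and BETA-VPE (1.91 ± 0.85) had the smallest p among the members (limma adjusted p = 1 each). In Col0 epidermis CASP1 was -1.56 ± 1.34 with KNO3 (limma adjusted p = 0.979), and 3 genes were above 0, beside 45.3% of all loci, with a median of -1.09. The differences of AT2G40530 (-1.60 ± 0.55) and SUC2 (-1.54 ± 0.56) had limma adjusted p = 0.909 each. Without the 7 arrays nearer the other cell type by markers, which include replicates 1 and 2 of KCl here, the median was 0.37 and CASP1 1.73, from 1 remaining KCl array. Without KCl replicate 1 alone the median was -0.51 and CASP1 -0.36, and without KCl replicate 3 alone they were -1.86 and -3.20. In the authors' deposited table, whose Col0 epidermis KCl average holds other arrays than the labels name, KNO3 minus KCl was -0.51 for CASP1 and -0.41 for the median of the 150. The labels and that table thus differ on which arrays make up this group.

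In atscl26 cortex CASP1 was -0.26 ± 1.34 (limma adjusted p = 1) and the median of the genes 0.02, with 81 above 0, beside 56% of all loci. NAC076 (0.76 ± 0.52) and AT1G18290 (-1.52 ± 1.095) had the smallest p (limma adjusted p = 1 each). In Col0 cortex CASP1 was 1.54 ± 1.495 higher with KNO3 (limma adjusted p = 0.897), and 136 genes were above 0, beside 58.9% of all loci, with a median of 0.63. HOL1, a methyltransferase, was 13.84 and 10.66 in Col0 cortex KNO3, against 6.40, 7.12 and 6.61 in Col0 cortex KCl, a difference of 5.54 ± 1.90, and AT1G49740 was 10.33 and 7.63, against 6.29, 6.05 and 5.999, a difference of 2.87 ± 0.84. Neither passed after adjustment (limma adjusted p = 0.897 each), although their KNO3 arrays lay above all KCl arrays. Without KNO3 replicate 1 the median of the 150 was -0.19 and CASP1 -0.51. The nitrate effects share no arrays between these 4 groups and are fitted with 1 estimate of the spread. In limma, 0 members and 0 models passed in 4 interactions of nitrate with cell type or genotype, with 785 to 2051 models at an unadjusted p under 0.05. For CASP1 the nitrate effect in atscl26 epidermis minus that in Col0 epidermis was 3.04 ± 2.01 (limma adjusted p = 0.938).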

How the data were processed

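RNA of sorted root cells was measured on 22 one-colour NimbleGen arrays (Cy3) designed on TAIR10. Of 24 arrays made, 2 were removed by the submitters after normalisation. Values are deposited on the log2 scale after RMA, per the submitters' processing notes. The settings of RMA are not stated there. There is 1 log2 value per transcript model (31524 models), used as deposited, and the authors also deposited their log2 averages of the groups. No background or detection values, slides or scan batches are given, so precision is limited by the number of arrays.

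The members and all lists were chosen with earlier results of these data known. Named genes are CASP1, members on a list, the members of highest r, those at the edge, those of smallest p per comparison, extremes of level and range, families with 3 or more members and loci with other measured models. Vascular, hormone, wall, transport and signalling genes were named after their values were seen. Names came from RefSeq genes of TAIR10.1, where all 150 loci were found, 70 of them with a symbol. Its coordinates served for neighbours only. A planned promoter motif search was not run, because no sequence table was used here.

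Comparisons used limma 3.58.1 (R 4.3.3) with 1 mean per group over 22 arrays, eBayes (17.7 total degrees of freedom) and Benjamini-Hochberg adjustment over all models, checked on simulated data. Python 3.11.15 with numpy 2.4.6 and pandas 2.3.3 made the rest. Alternatives were quantile normalisation, leaving out dim models, a replicate block, array weights, an intensity trend, each array left out, and sets of arrays left out. The last 2 sets (7 arrays by markers, 2 by CASP1 level) were chosen after seeing the data. Replicate numbers did not pair the arrays. Results of 1 gene are not reported here.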

Additional observations from a re-analysis of the deposited data

How the results depend on the processing

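Membership depended on the measure and the arrays. Of the 150 loci, 51 were shared with Spearman rho, 91 with deviations from group means, 80 without dim models, 8 without the 2 arrays farthest in CASP1 and 12 without the 7 arrays nearer the other cell type by markers. Leaving out 1 array kept 68 to 146, lowest without Col0 epidermis KCl replicate 1, then 91 without atscl26 epidermis KNO3 replicate 3. Models past the threshold, by comparison: without the 4 low-correlation arrays there were 1 (average nitrate), 3 (genotype), 25 (cell type), 11 (nitrate in Col0 epidermis) and 24 (nitrate in Col0 cortex). Without the 7 arrays there were 736 (cell type) and 89 (nitrate in atscl26 cortex). Those arrays were left out for their epidermis and cortex markers, which by construction favours a cell type difference. The member HOL1 was among the cell type models called there, at -3.19 ± 0.72, in a fit that left 1 KCl array in Col0 epidermis. With array weights, whose fit stopped before full convergence, there were 519 (Col0 epidermis) and 963 (atscl26 cortex). With quantile normalisation there was 1 in Col0 epidermis, and without the 2 farthest arrays 5 there and 0 for cell type, which was also 0 with an intensity trend. Leaving out 1 array gave 0 to 3 models (average nitrate), 0 to 30 (genotype), 0 to 3 (cell type), 0 to 5 (Col0 epidermis), 0 to 884 (Col0 cortex, 884 without KNO3 replicate 2, which leaves 1 KNO3 array assumed to vary like the others), 0 to 21 (atscl26 epidermis) and 0 to 1 (atscl26 cortex). The 884 of 31524 models held 7 of the 150 members, with AT1G49740 at 4.21. The median member difference in Col0 epidermis was -0.063 with array weights and 0.37 without the 7 arrays. CASP1 changed sign without the 4 arrays (average nitrate -0.22, genotype 0.21, Col0 cortex -0.51), with array weights (genotype 0.12, cell type -0.13, Col0 epidermis 0.75, atscl26 cortex 0.093), without the 7 arrays (genotype 0.41, cell type -1.04, Col0 epidermis 1.73) and without the 2 farthest (cell type -0.33). With 1 array left out CASP1 ranged from -0.21 to 0.81 (average nitrate), -0.94 to 0.081 (genotype), -0.22 to 0.81 (cell type), -0.51 to 3.59 (Col0 cortex) and -0.89 to 0.72 (atscl26 cortex). Without the 7 arrays BETA-VPE read -0.47 (cell type) and -0.063 (atscl26 epidermis), AT4G02090 -0.17 and SUC2 0.12. NAC076 read -0.073 without the 4 arrays, and -0.073 to 1.21 with 1 array left out. The causes were not tested. In the fit with the replicate number as a block, 0 members were called and the median member difference in Col0 cortex was 0.54, and no call changed. Same-numbered arrays had a median correlation of deviations of -0.01 (-0.58 to 0.35), and 4 of 22 arrays correlated best with their own number. With 2 or 3 arrays a group, differences near 3 times their standard error, such as HOL1 at 5.54 ± 1.90, did not pass after adjustment.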
